A study of Mus musculus with 12 samples.

Results

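Atg16l1 and the genes that work with it in the conjugation and initiation steps of autophagy were described probeset by probeset in newborn mouse brains with and without the protein kinase KIS. The genes were Atg16l1, its conjugation partners Atg5, Atg12, Atg7, Atg10 and Atg3, and the initiation genes Ulk1, Ulk2 and Becn1, and their probesets were taken by gene symbol from the main probesets of the array, which are those that interrogate annotated exons. Of the 9 genes, 8 had main probesets, 163 in all, and 160 of these passed the filter on replicate spread, out of 205469 in 17279 genes. Atg5 had no main probeset and was described from 12 exon probesets that the array sets aside for normalization. Atg16l1 was chosen by measured values of these arrays, since many of its probesets were lower in KIS-ko brains, so its own differences are a description with no test, whereas the others were chosen for their function.

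The arrays were Affymetrix Mouse Exon 1.0 ST arrays, which carry a few probes for each exon. Whole brains came from 6 litters of newborn mice, and each litter gave 1 wildtype (KIS +/+) and 1 KIS-ko (KIS -/-) female, so that 6 wildtype arrays were paired with 6 KIS-ko arrays. Both genotypes were on a C57BL6/N background, and the targeted allele is a deletion in the whole animal, so it is not limited to the brain or to a cell type. The comparison asks how transcript levels in the newborn brain differ when KIS, the product of Uhmk1, is missing. In whole brain RNA, fewer cells of a type and less RNA per cell cannot be told apart.

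Autophagy encloses cytoplasm in a double membrane and delivers it to the lysosome. The kinases Ulk1 and Ulk2 start the process, and Becn1 belongs to the lipid kinase complex that marks the forming membrane. The ubiquitin-like protein Atg12 is then activated by Atg7, carried by Atg10 and joined to Atg5. The conjugate binds the scaffold Atg16l1, which directs Atg3 to attach the Atg8 family proteins to lipid. Neurons depend on this pathway, as loss of Atg5 or Atg7 in the mouse nervous system leads to degeneration, and the whole body uses it to survive the starvation that follows birth.

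Promoter sequences are shown for Atg3, which had the lowest difference among the partners, and for Ulk1, the only gene of the set with a higher value in KIS-ko brains. They are the 250 bases before the annotated start, read 5′ to 3′ on the strand of the gene, from RefSeq on GRCm38.p6. Capitals mark each CACGTG, the E-box of the CLEAR motif that lysosomal and autophagy genes often carry, and each GC box, GGGCGG or CCGCCC.
Atg3, chr16:45158579-45158828, + strand: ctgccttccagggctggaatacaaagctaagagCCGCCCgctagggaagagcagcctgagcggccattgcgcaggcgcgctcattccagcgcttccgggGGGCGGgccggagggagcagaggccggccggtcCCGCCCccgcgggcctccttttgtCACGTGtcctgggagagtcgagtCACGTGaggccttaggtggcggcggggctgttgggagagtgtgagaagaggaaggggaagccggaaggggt
Ulk1, chr5:110810082-110810331, - strand: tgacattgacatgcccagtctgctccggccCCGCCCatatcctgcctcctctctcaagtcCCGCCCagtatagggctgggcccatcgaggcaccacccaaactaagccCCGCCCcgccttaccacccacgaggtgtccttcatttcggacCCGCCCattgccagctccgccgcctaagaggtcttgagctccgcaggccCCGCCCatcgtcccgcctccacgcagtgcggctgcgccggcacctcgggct
The Atg3 window held 2 E-boxes and 3 GC boxes, and 68% of its bases were G or C. The Ulk1 window held 5 GC boxes and no E-box, with 67.2% G or C, against a median of 52.4% over all promoter windows. Of the 9 genes, 6 had an entry, namely Atg10, Atg3, Atg5, Atg7, Ulk1 and Ulk2. Searched on both strands with overlapping matches allowed, the E-box was found in 3 of these 6 windows and in 6.02% of all 32851. The GC box was found in 5 of the 6 and in 32.7% of all, and the FOXO site TGTTTAC or GTAAACA in 0 of the 6 and in 3.17% of all. A match describes letters in a window and is not evidence of binding.

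The genotype labels were checked on Uhmk1, which was lower in KIS-ko brains in 6 of 6 litters, by a log2 difference of -2.11 ± 0.068 (SE, limma adjusted p = 2.91e-07). It was the only gene of 17279 past the adjusted threshold of 0.05, or 0.00579%. Without adjustment, 1065 genes (6.16%) had p under 0.05, of which 750 (4.34%) were lower and 315 (1.82%) were higher, a count that became 4017 without litter 4, 649 without litter 2 and 579 without litter 6. The difference was below 0 in 69.8% of all genes and the median gene differed by -0.036, while in litter 4 the order turned and 69.7% of genes were higher in the KIS-ko brain. The array medians moved the same way, with log2 differences between littermates from -0.17 in litter 6 to 0.098 in litter 4. After each array was centred on its own median, 38.7% of genes were below 0 and the median gene differed by 0.018. Neuronal markers (5 of 5), astrocyte and radial glia markers (4 of 4) and oligodendrocyte lineage markers (5 of 5) lay above the intron control level, the signal under which 95% of the intron control probesets fell, whereas microglial (0 of 4) and erythroid (0 of 3) markers did not. No marker of the 9 cell type lists passed the adjusted threshold in limma, the summed levels of the genotypes overlapped in each list, and 1 pericyte marker had an unadjusted p under 0.05. The differences were below 0 in 4 of 4 astrocyte and radial glia markers (median -0.088) and 4 of 4 endothelial markers (-0.071). They were also below 0 in 3 of 4 meningeal (-0.049), 4 of 5 oligodendrocyte lineage (-0.044) and 4 of 5 neuronal markers (-0.035). The remaining lists had medians between -0.017 and 0.017. The part of these markers in the differences described here was not tested.

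Below, a gene value is the mean over a gene's probesets of log2(signal + 16), and a difference is KIS-ko minus wildtype on that scale. Levels were not compared between genes, since each probe binds with its own strength. Of the 8 genes with main probesets, 7 had a difference below 0, as did 69.8% of all genes, and the median difference of the 8 was -0.061 against -0.036 for the median gene. With arrays centred, 5 of the 8 were below 0, against 38.7% of all genes, and Atg7 and Ulk2 joined Ulk1 above 0. The wildtype and KIS-ko values overlapped in all 9 genes, whereas in 0.208% of all genes they did not. The plot of gene values by litter shows each pair of arrays.

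**Figure D1:**
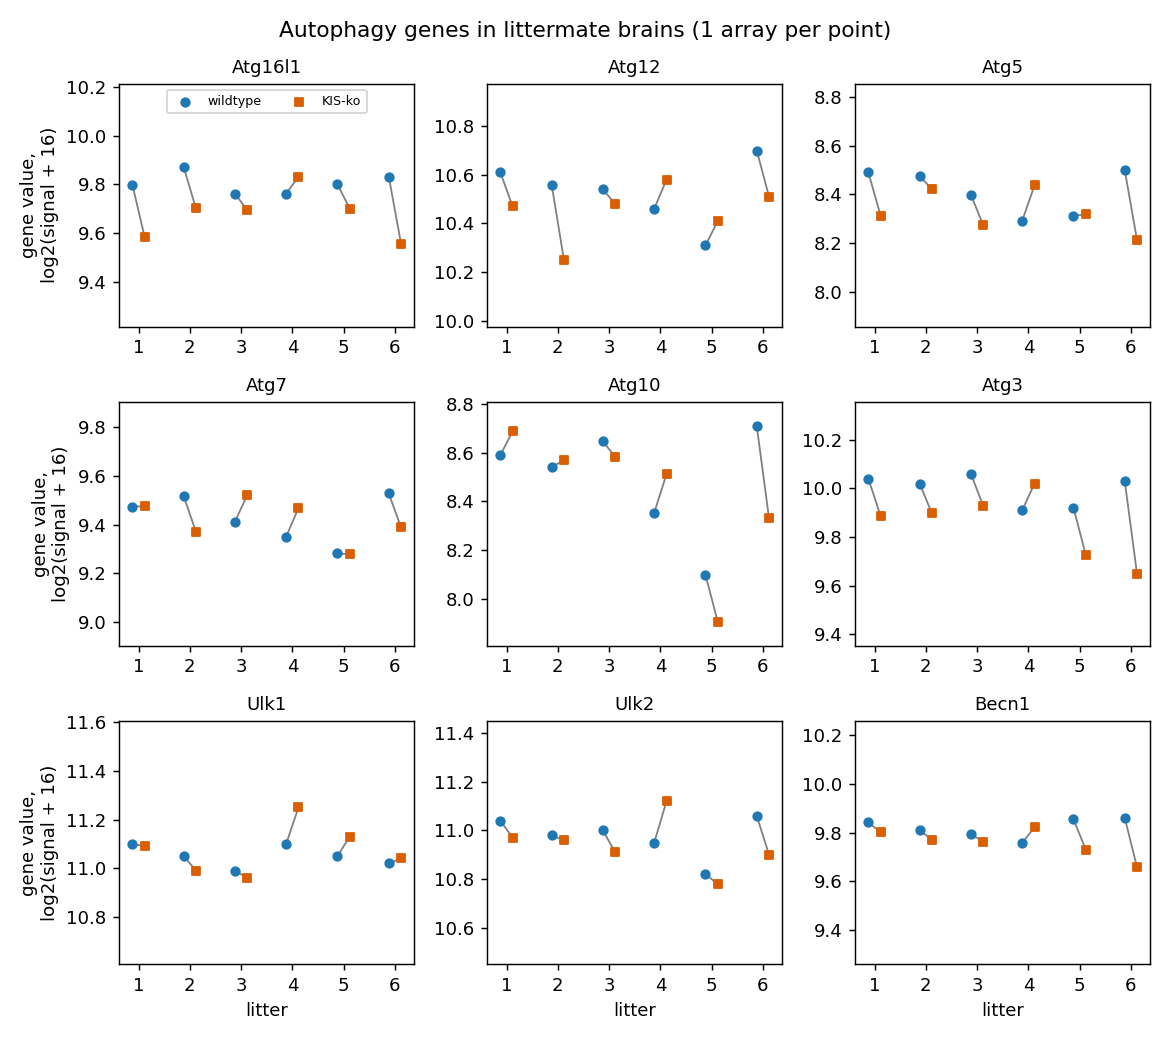
Gene value of each of the 9 autophagy genes, in log2(signal + 16), in the wildtype (circles) and KIS-ko (squares) brain of each of 6 litters, 1 array per point. All panels span 1 log2 unit. For Atg16l1 and Atg3 the KIS-ko square lies below its littermate in each litter but litter 4.

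Atg16l1, the scaffold that binds the conjugate, lies on chromosome 1 from 89652668 to 89688871 on the + strand, 82.4 Mb before Uhmk1 (positions as the array table gives them, whose genome build is not named). Its wildtype gene values were 9.80, 9.87, 9.76, 9.76, 9.80 and 9.83 in litters 1 to 6, and its KIS-ko values 9.58, 9.70, 9.70, 9.83, 9.70 and 9.56. In 5 of 6 litters the KIS-ko brain was below every wildtype brain, and only that of litter 4 was above its littermate. The mean was 9.80 ± 0.043 (SD, n = 6) in wildtype and 9.68 ± 0.099 in KIS-ko brains, a difference of -0.13 with a SD of 0.12 over the 6 pairs, which was -0.071 with arrays centred. Read as the weighted mean ratio that the methods of the study describe, this was a fold change of 0.931 ± 0.059 (SD, n = 6 pairs). Relative to the median gene of the same litter, the difference was -0.090 ± 0.066 and lay below 0 in 6 of 6 litters, although by no more than -0.0022 in litter 4. The wildtype brains were close to each other, as only 4.07% of genes had a smaller wildtype SD. That share was 3.83% for Ulk1 and 3.04% for Becn1.

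Lower values of Atg16l1 were found along the whole transcript. Of its 22 probesets, which cover 17 exon clusters, 21 (95.5%) were lower, against 66.2% of all probesets, and their differences ran from -0.34 to 0.00054 with a median of -0.11. Of all genes with at least 15 probesets, 6.24% had at least 95% of them lower. The 11 probesets nearer the 5′ end had a median of -0.10 and the 11 nearer the 3′ end one of -0.12. The 15 probesets above the intron control level had a median of -0.10 and the 7 dimmer ones of -0.16. All 22 were marked as matching 1 place in the genome. These counts restate what the gene was chosen on, and the plot of single probesets sets them beside those of its partners.

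The extremes of Atg16l1 were single probesets of unlike brightness. Probeset 17 of 22 in 5′ to 3′ order, 92 bases long, had signals of 440, 528, 419, 418, 380 and 432 in the wildtype brains of litters 1 to 6, and of 326, 390, 350, 448, 353 and 217 in their KIS-ko littermates. Its mean difference of -0.34 was the lowest of the 22, and within litter 6 it was -0.94. This probeset was not above the intron control level. Probeset 4, 38 bases long and the brightest, had wildtype signals of 3939, 3866, 4229, 4294, 4551 and 4080 and KIS-ko signals of 4278, 4272, 3980, 4264, 3888 and 4269. Its groups overlapped throughout and its difference was 0.00054. Probeset 22, the longest at 786 bases, differed by -0.071 ± 0.078 (SD, n = 6 pairs) and was lower in 5 litters. By litter, 17, 20, 14, 7, 16 and 21 of the 22 probesets were lower in litters 1 to 6. No single probeset was lower in all 6 litters, although 2.12% of all probesets were.

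**Figure D2:**
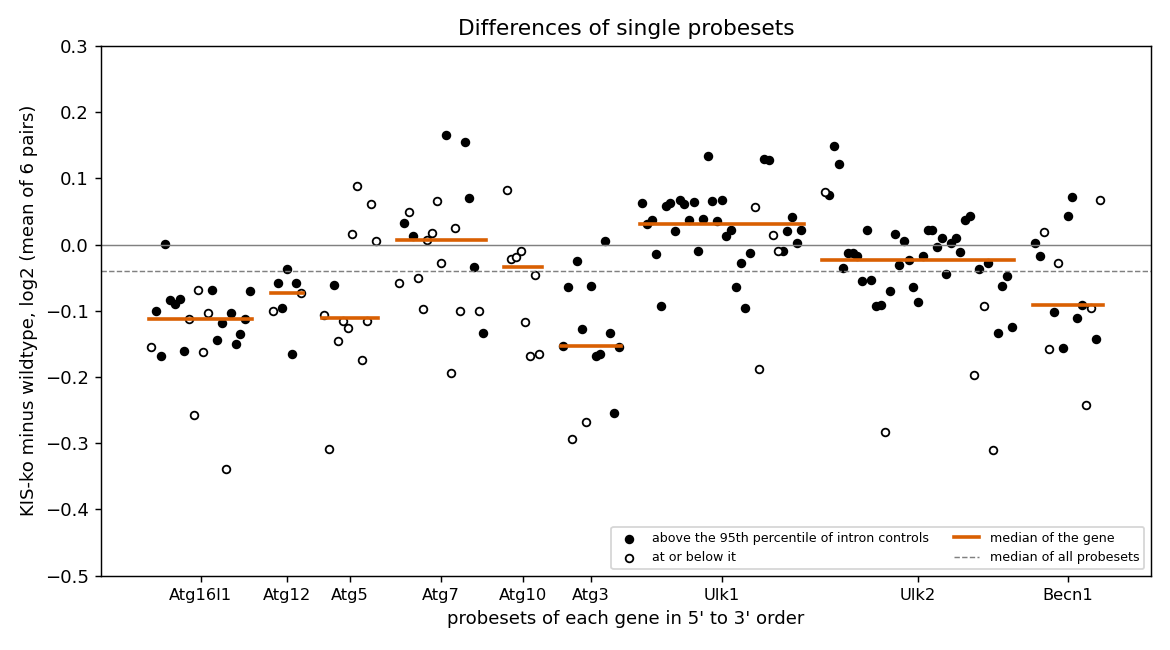
Difference of each kept probeset (KIS-ko minus wildtype, log2, mean of 6 pairs) in 5′ to 3′ order along each of the 9 genes. Filled points lie above the intron control level (95% of intron control probesets fall under it), open points at or below it, and the bar of each gene is the median of its probesets. The points of Atg16l1 and Atg3 lie almost all below 0, those of Atg7 on both sides and most of those of Ulk1 above.

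Among the 7 partners with main probesets, 6 were lower in KIS-ko brains, and 3 of them, Atg3, Ulk2 and Becn1, were lower in at least 5 of 6 litters, as 22.5% of all genes were. None was lower in 6 of 6 litters, which 1.6% of all genes were. None passed the adjusted threshold in limma, and 1, Atg3, had an unadjusted p under 0.05, as 6.16% of all genes had. Of their 138 probesets, 82 (59.4%) were lower, compared with 66.2% of all probesets. Together with Atg16l1 this made 103 of 160, which became 71 with arrays centred and 77 with arrays quantile-normalized again, when 43.7% and 50.9% of all probesets were lower. None of the 138 passed the adjusted threshold, which 10 of all probesets (0.00487%) did, and the lowest adjusted p among them was 0.731. Without adjustment 3 were lower at p under 0.05 and 0 were higher, against 4.72% and 1.91% of all probesets. In 6 of 6 litters, 2 of the 138 were lower, against 2.12% of all probesets.

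Atg3, the E2-like enzyme that hands Atg8 proteins to lipid, lies on chromosome 16 from 45159215 to 45188563 on the + strand. Its wildtype gene values were 10.04, 10.02, 10.06, 9.91, 9.92 and 10.03 in litters 1 to 6, and its KIS-ko values 9.89, 9.90, 9.93, 10.02, 9.73 and 9.65. In 4 litters the KIS-ko brain was below every wildtype brain, and in litter 4 it was above its littermate. The difference was -0.14 ± 0.062 (SE, n = 6 pairs) with a 95% interval from -0.28 to -0.0070, and limma gave an unadjusted p of 0.0412 and an adjusted p of 0.685. It was -0.087 with arrays centred. The fold change by the methods of the study was 0.928 ± 0.084 (SD, n = 6 pairs). Relative to the median gene the difference was -0.11 ± 0.10 (SD), below 0 in 5 of 6 litters.

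Of the 13 kept probesets of Atg3, 12 (92.3%) were lower, against 66.2% of all probesets, from -0.29 to 0.0051 with a median of -0.15. Another 2 probesets, of 25 and 27 bases and marked as matching several places, were removed for their spread. Probeset 4 in 5′ to 3′ order had wildtype signals of 788, 828, 709, 701, 635 and 652 and KIS-ko signals of 578, 528, 607, 680, 522 and 585, and it was the only 1 of the 13 that was lower in 6 of 6 litters. Its difference was -0.29 with a limma adjusted p of 0.731. This probeset was 1 of the 2 kept ones of Atg3 that were not above the intron control level. Probeset 5, among the brighter ones at 1690 and 1660 in wildtype and KIS-ko brains, differed by -0.025.

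Atg12 and Atg5, which together form the conjugate that binds Atg16l1, had differences nearer 0 than Atg16l1 and Atg3. Atg12 (chromosome 18 from 46892275 to 46901197, - strand) had wildtype values of 10.61, 10.56, 10.54, 10.46, 10.31 and 10.70 and KIS-ko values of 10.47, 10.25, 10.48, 10.58, 10.41 and 10.51. It was lower in 4 of 6 litters, and its lowest difference was -0.32, in litter 2. The difference was -0.084 ± 0.064 (SE) with an interval from -0.23 to 0.058 and a limma adjusted p of 0.693, and it was -0.037 without litter 2 and -0.028 with arrays centred. All 7 kept probesets were lower, from -0.17 to -0.037, which was so in 11.8% of the genes with 7 kept probesets. Once arrays were centred 6 of the 7 were, against 43.7% of all probesets. An eighth probeset, of 26 bases and with several matches, was removed by the filter at a difference of -0.86 ± 0.99 (SD, n = 6 pairs), and the gene stood at -0.18 when it was kept.

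Atg5 (chromosome 10 from 43988312 to 44084084, + strand) was read from its 12 normalization probesets, a choice made after its absence from the main probesets was seen. Its wildtype values were 8.49, 8.48, 8.40, 8.29, 8.31 and 8.50 and its KIS-ko values 8.31, 8.42, 8.27, 8.44, 8.32 and 8.21, so that the groups overlapped over most of their range. The difference was -0.082 ± 0.060 (SE) with an interval from -0.22 to 0.052 and a limma adjusted p of 0.69. Relative to the median gene of the same litter it was -0.045 ± 0.11 (SD, n = 6 pairs), below 0 in 3 of 6 litters. Of the 12 probesets, 8 (66.7%) were lower, against 66.2% of all main probesets. Only 1 was above the intron control level, although 11 were above the median of the intron controls. The 197 intron control probesets within the span of Atg5 had a median difference of -0.033, and 120 of them were lower.

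The activating enzyme Atg7 and the E2-like enzyme Atg10 had differences nearer 0 than Atg3. Atg7, the E1-like enzyme that serves both conjugation systems (chromosome 6 from 114623026 to 114809041, + strand), had wildtype values of 9.47, 9.52, 9.41, 9.35, 9.28 and 9.53 and KIS-ko values of 9.48, 9.37, 9.52, 9.47, 9.28 and 9.39. Its difference was -0.010 ± 0.054 (SE) with an interval from -0.13 to 0.11 and a limma adjusted p of 0.945. It turned to 0.046 when arrays were centred on their medians, 0.038 with dim probesets left out, 0.017 without litter 2 and 0.016 without litter 6. The fold change by the methods of the study was 1.01 ± 0.070 (SD, n = 6 pairs). Of its 19 probesets 9 (47.4%) were lower, against 66.2% of all probesets, and the median was 0.0071. Neighbouring probesets 11 and 12 differed by 0.17 and -0.19, and relative to the mean of the gene by 0.18 and -0.18, both with an unadjusted p under 0.05 and a limma adjusted p of 0.781.

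Atg10, which carries Atg12 to Atg5 (chromosome 13 from 91075518 to 91347980, - strand), varied most of the 9 genes between wildtype litters. Both brains of litter 5 had the lowest values of their groups, 8.10 and 7.91, while the other wildtype values lay between 8.35 and 8.71 and the other KIS-ko values between 8.33 and 8.69. The difference was -0.058 ± 0.071 (SE) with an interval from -0.22 to 0.10 and a limma adjusted p of 0.765. It was 0.0060 without litter 6 and -0.0035 with arrays centred. Of its 8 probesets 7 (87.5%) were lower, against 66.2% of all probesets, but 3 were once arrays were centred or quantile-normalized again (43.7% and 50.9% of all) and 4 without litter 6. None was above the intron control level, which 44.6% of all kept probesets were, although all 8 were above the median of the intron controls. The wildtype SD of 0.23 was larger than that of 93.6% of genes.

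**Figure D3:**
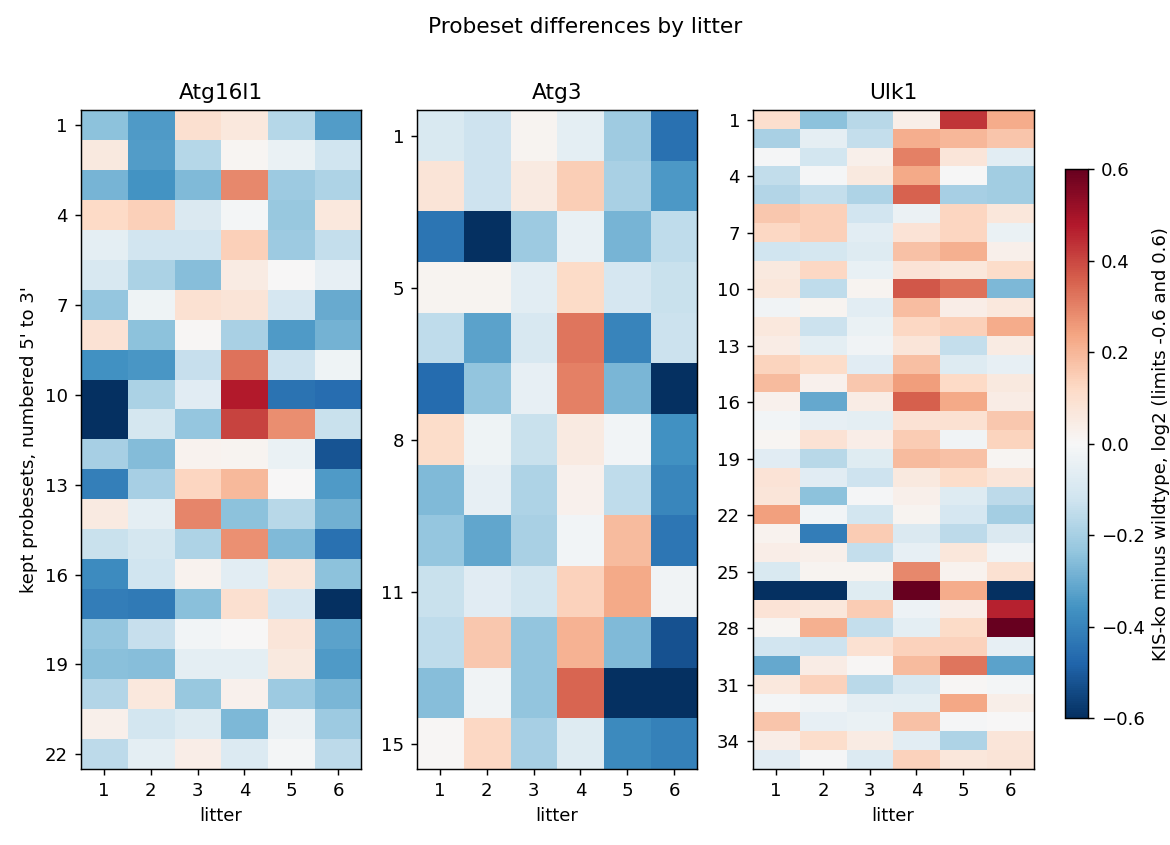
Difference of each kept probeset (rows, numbered 5′ to 3′) in each litter (columns) for Atg16l1, Atg3 and Ulk1, as KIS-ko minus wildtype on the log2 scale with colours limited at -0.6 and 0.6. In litter 6, 21 of 22 Atg16l1, 13 of 13 Atg3 and 14 of 35 Ulk1 probesets were lower, and in litter 4 these were 7, 4 and 8.

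The initiation kinases were read from the most probesets of the set. Ulk1 (chromosome 5 from 111213962 to 111239081, - strand) had wildtype values of 11.10, 11.05, 10.99, 11.10, 11.05 and 11.02 and KIS-ko values of 11.09, 10.99, 10.96, 11.25, 11.13 and 11.04. It was lower in 3 litters and higher in 3, with a difference of 0.022 ± 0.048 (SE), an interval from -0.084 to 0.13 and a limma adjusted p of 0.868. Without litter 4 the difference was -0.0025, and it was 0.079 with arrays centred and 0.055 with arrays quantile-normalized again. Of its 35 probesets, 31 of them above the intron control level, 10 (28.6%) were lower, against 66.2% of all probesets, and the median was 0.032. Without litter 4, 16 were lower, and with arrays centred 4 were, against 69.1% and 43.7% of all probesets. Its probeset 15, at 3050 in wildtype and 3350 in KIS-ko brains, was higher in all 6 litters, with a difference of 0.13 and a limma adjusted p of 0.757.

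Ulk2, the close relative of Ulk1 (chromosome 11 from 61589327 to 61668423, - strand), had wildtype values of 11.04, 10.98, 11.00, 10.95, 10.82 and 11.06 and KIS-ko values of 10.97, 10.96, 10.91, 11.12, 10.78 and 10.90. It was lower in 5 of 6 litters, with a difference of -0.035 ± 0.053 (SE), an interval from -0.15 to 0.083 and a limma adjusted p of 0.809. The difference was -0.0083 without litter 6 and -0.075 without litter 4, and it turned to 0.022 when arrays were centred. Of its 41 probesets 27 (65.9%) were lower with a median of -0.023, against 66.2% of all probesets. With arrays centred 12 were, against 43.7% of all. Its lowest probesets, 37 and 14 in 5′ to 3′ order at -0.31 and -0.28, were dim ones marked as matching several places.

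Becn1, the PI3-kinase subunit (chromosome 11 from 101149656 to 101163168, - strand), had wildtype values of 9.84, 9.81, 9.79, 9.76, 9.86 and 9.86 and KIS-ko values of 9.80, 9.77, 9.76, 9.82, 9.73 and 9.66. It was lower in 5 of 6 litters, and the KIS-ko brains of litters 5 and 6 were below every wildtype brain. The difference was -0.063 ± 0.050 (SE) with an interval from -0.17 to 0.047 and a limma adjusted p of 0.699. It was -0.035 without litter 6 and -0.0064 with arrays centred. Of its 15 probesets 10 (66.7%) were lower with a median of -0.091, against 66.2% of all probesets. Probeset 10, 98 bases long, was lower in all 6 litters by a mean log2 difference of -0.11 (limma adjusted p = 0.766). Relative to the gene, probeset 12 was lower by a difference of -0.18 and probeset 15 higher by 0.13, with limma adjusted p of 0.806 and 0.809.

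Among the 138 probesets of the partners, 0 departed from the mean of their gene past the adjusted threshold in limma, against 2 of 202944 (0.000985%) over all genes. At an unadjusted p under 0.05, 4 of the 138 did, 2 of Atg7 and 2 of Becn1, against 6.11% of all.

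Within litters, most of the 8 genes with main probesets had differences of the same sign. Of the 8, 6, 7, 7, 0, 6 and 7 were lower in litters 1 to 6, against 30.3% of all genes lower in litter 4, and their median differences were -0.056, -0.092, -0.062, 0.12, -0.068 and -0.20. The median over all genes was -0.046, -0.086, 0.0023, 0.071, -0.052 and -0.11 in the same litters, so that both were highest in litter 4 and lowest in litter 6. Relative to the median gene, 4, 4, 7, 2, 4 and 7 of the 8 were below 0.

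**Figure D4:**
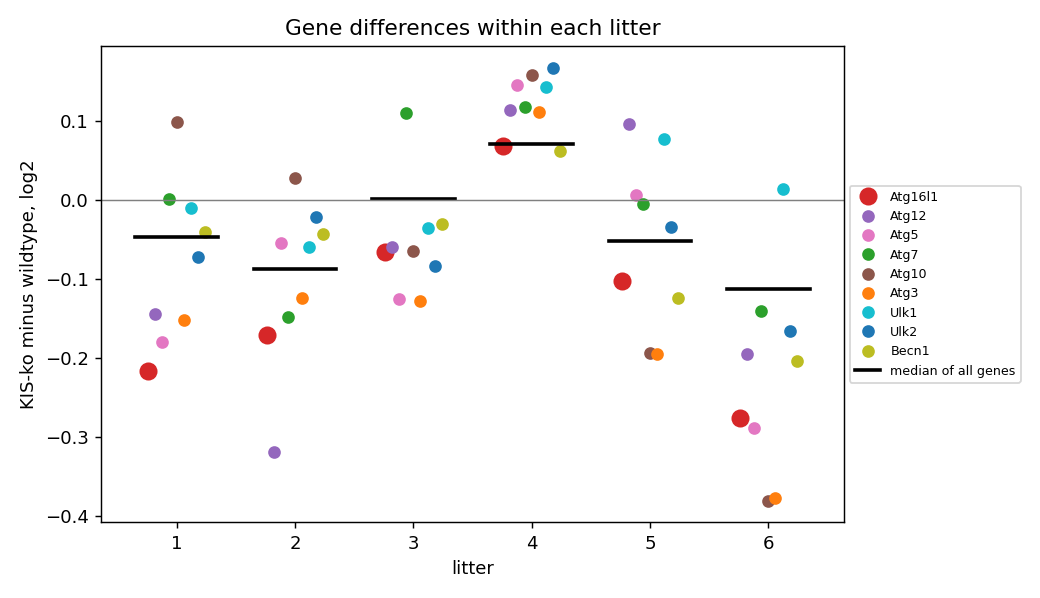
Difference of each of the 9 genes (KIS-ko minus wildtype, log2) within each of 6 litters, with the median of all genes in that litter as a black bar. All 9 genes lie above 0 in litter 4, and 8 of the 9 lie below it in litter 6.

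Set directly against its partners within litters, Atg16l1 had a lower difference than Atg7 and Ulk1 in each litter, and one near that of Atg3. Its difference minus that of Atg3 was 0.017 ± 0.077 (SD, n = 6 pairs), with Atg16l1 the lower in 3 of 6 litters. It was below Atg7 by -0.12 ± 0.074 and below Ulk1 by -0.15 ± 0.095, in 6 of 6 litters each, and below Ulk2 by -0.092 ± 0.062 and Atg12 by -0.043 ± 0.11, in 5 of 6 litters each. The contrasts with Becn1 (-0.064 ± 0.077), Atg10 (-0.069 ± 0.17) and Atg5 (-0.045 ± 0.070) held in 4 of 6 litters each. These contrasts are descriptions, because Atg16l1 was chosen for being low.

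Over the 12 arrays, with the array median subtracted, Pearson's r of Atg16l1 was highest with Atg5 (0.591), Becn1 (0.578) and Atg3 (0.543) among the other 8 genes, above that with 90.6%, 90.0% and 88.1% of all genes. It was 0.232 with Ulk1, -0.143 with Ulk2, -0.246 with Atg12, -0.529 with Atg10 and -0.538 with Atg7. Within genotype, after removal of the group means, r was 0.616 with Becn1, 0.57 with Atg5, 0.523 with Ulk1 and 0.407 with Atg3, so that Ulk1 stood above Atg3 there. The genes most like Atg16l1 among 17278 were Fgd6 (r = 0.953), Tmem41b (0.95), Rps15a (0.944), Elf1 (0.94) and Nol10 (0.932). Their own differences ran from -0.12 to -0.18, and their r within genotype was 0.926 to 0.942. The arrays share litters and the normalization of the whole experiment, so these r values are given as a description.

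The rest of the pathway was read from a list of 42 further autophagy genes, of which 40 were in the table, some under older symbols. Of these 40, 35 were lower, against 69.8% of all genes, with a median of -0.059 against -0.036. The median of the list ran from -0.10 without litter 4 to -0.038 without litter 6. Once arrays were centred 20 of 40 were lower, with a median of -0.0029, and once they were quantile-normalized again 30 of 40, with a median of -0.017, against 38.7% and 48.3% of all genes. None passed the adjusted threshold in limma, and 2 were lower at an unadjusted p under 0.05 (4.34% of all genes). All 5 Atg8 family genes measured, which encode the proteins that Atg3 attaches to lipid, had differences from -0.097 to -0.033, and 3 of the 5 were below 0 with arrays centred. All 4 genes of the Atg4 proteases, which trim and release Atg8 proteins, were below 0 with a median of -0.084, as were the 3 partners of the Ulk kinases (-0.081), and with arrays centred 3 of the 4 and 2 of the 3 were. The 7 fusion and lysosome genes had a median of -0.094 with 6 below 0, the 10 membrane expansion genes one of -0.059 with 8 below 0, the 6 genes of the PI3-kinase complex one of -0.047 with 5 below 0, and the 5 cargo receptors one of -0.049 with 4 below 0. With arrays centred 4, 5, 1 and 2 genes of these groups were below 0, and the medians of the PI3-kinase complex and the cargo receptors turned to 0.0094 and 0.0088.

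The 5 of these 40 genes with the largest differences were Vamp8, Optn, Atg4c, Atg14 and Vmp1, all with a limma adjusted p of 0.685. Many of their probesets were not above the intron control level, which 0 of 3 passed in Vamp8, 9 of 17 in Optn, 4 of 15 in Atg4c, 1 of 18 in Atg14 and 10 of 15 in Vmp1. Vamp8, a SNARE protein of autophagosome fusion, was read from 3 probesets and differed by -0.20 ± 0.077 (SE), from 7.94 ± 0.17 (SD, n = 6) in wildtype to 7.74 ± 0.15 in KIS-ko brains. Optn, a cargo receptor, had 16 of 17 probesets lower and differed by -0.14 ± 0.058 (SE). The protease Atg4c (-0.14 ± 0.067), the Becn1 partner Atg14 (-0.13 ± 0.072) and the membrane protein Vmp1 (-0.13 ± 0.066) followed. Atg14 was lower in 4 of 6 litters and the other 4 genes in 5 of 6. Tfeb, a transcription factor of lysosomal genes, was chosen here for standing highest after the values were seen, and it differed by 0.068 ± 0.055 (SE), with 2 of its 16 probesets above that level. With arrays centred the differences were -0.15 for Vamp8, -0.088 for Optn, -0.10 for Atg4c, -0.080 for Atg14, -0.074 for Vmp1 and 0.12 for Tfeb.

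**Figure D5:**
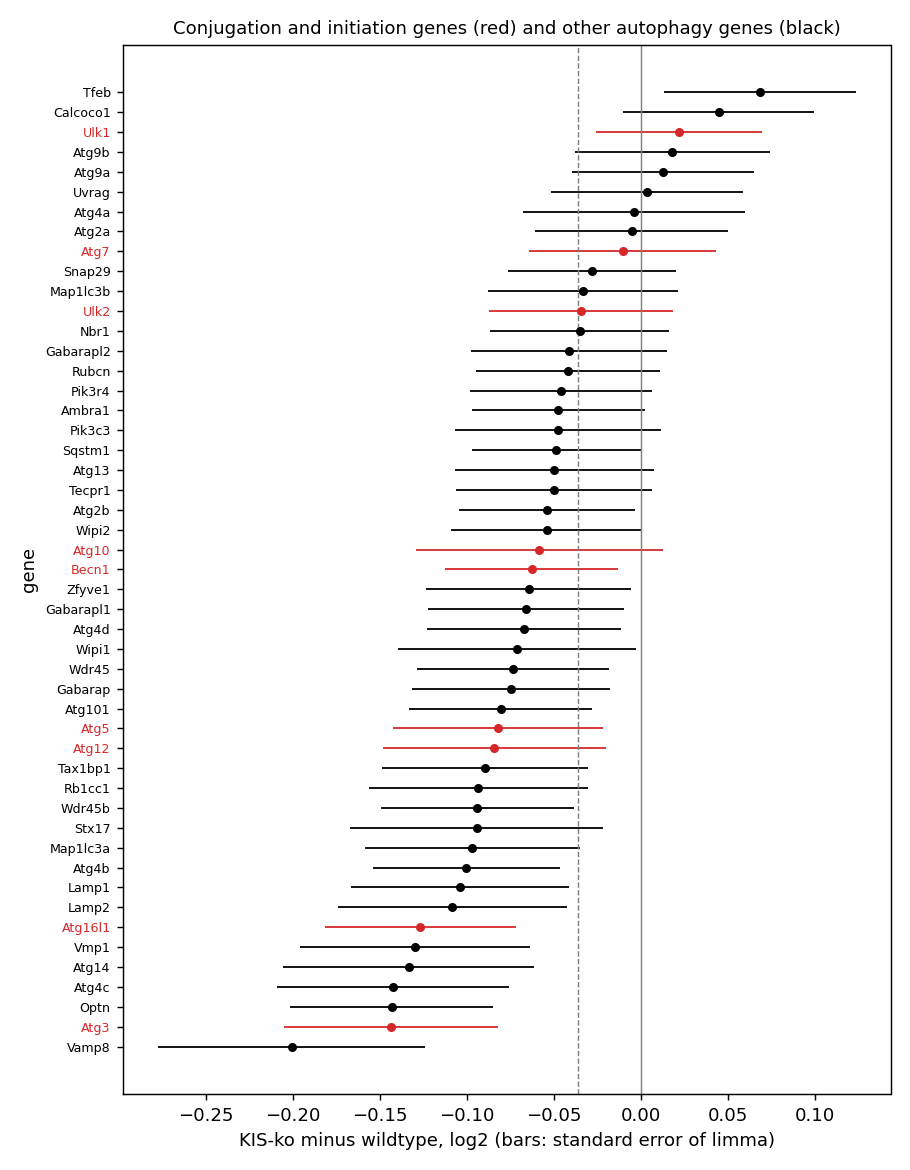
Difference of each gene (KIS-ko minus wildtype, log2, n = 6 pairs) for the conjugation and initiation genes in red and the other 40 autophagy genes in black, with bars of 1 limma standard error and a dashed line at the median of all genes, -0.036. Most points lie below 0, Vamp8 is the lowest at -0.20 and Tfeb the highest at 0.068. With arrays centred on their medians 20 of the 40 lay below 0, against 38.7% of all genes.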

How the data were processed

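Total RNA from 12 newborn female mouse brains was hybridised to Affymetrix Mouse Exon 1.0 ST arrays, 1 brain per array. The deposited values are intensities per probeset on a linear scale, which the authors made with Affymetrix Expression Console by quantile normalization and the PLIER algorithm, per the submitters' notes and the study's methods. The genome build of the positions is not given in the sources used here. Genotype and litter came from the labels, and 0 columns belonged to other samples.

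Following the methods of the study, main probesets with a relative SD above 0.4 in either genotype were removed (15948, or 7.2%), which reduces the spread of those that remain. The others were taken as log2(signal + 16) and averaged per gene, which understates the change of dim probesets. KIS-ko and wildtype were compared with limma 3.58.1 (R 4.3.3) with a term for litter, and p-values were adjusted by Benjamini-Hochberg over all genes or probesets, at a threshold of 0.05. The script was first tested on simulated data. Promoters and figures were handled in Python 3.11.15 with pandas 2.3.3, numpy 2.4.6 and matplotlib 3.10.9. Intron control probesets (5222, median signal 114, 95th percentile 713) served as background. Array medians lay between 460 and 526, and r between arrays between 0.977 and 0.99.

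Litter numbers in the labels mark littermates and so pair the samples. Deviations from the group means correlated within litters with r of 0.272, -0.0593, 0.136, -0.106, 0.473 and -0.114 in litters 1 to 6. With 6 arrays in each group, their number limits the precision.

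The genes, lists and tests were chosen with earlier results of these data known. All 9 genes were named, with the 5 largest differences of an autophagy list, the 5 genes most like Atg16l1 by r, and Uhmk1. Single probesets were singled out after their values were seen. Older symbols were matched through RefSeq synonyms, and Atg16l2, Ulk3 and the marker Kcnj13 were not matched. Alternatives were the fit without the block, other pseudocounts, filters, scalings and summaries, and each litter left out. The normalization probesets of Atg5 were added after seeing the data.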

Additional observations from a re-analysis of the deposited data

How the results depend on the processing

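The precision is limited by 6 pairs and by signal over background, since Atg10 had no probeset above the intron control level and so no value with dim probesets left out, and Atg5 had 1. Atg16l1, Atg12, Atg3 and Becn1 stayed below 0 and Ulk1 above 0 under each alternative that keeps all litters. The difference of Atg16l1 then ran from -0.14 to -0.071 and that of Atg3 from -0.15 to -0.087, both nearest 0 with arrays centred. Centring also brought Atg12 from -0.084 to -0.028, Becn1 from -0.063 to -0.0064 and Atg10 from -0.058 to -0.0035, and it took Ulk1 from 0.022 to 0.079. The median gene moved the same way, from -0.036 to 0.018. Atg7 turned to 0.038 with dim probesets left out, 0.046 with arrays centred and 0.041 with arrays quantile-normalized again, and Ulk2 to 0.022 with arrays centred and 0.0084 with the median over probesets. The cause was not tested.

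Leaving out 1 litter, the difference ran from -0.17 to -0.097 for Atg16l1, from -0.20 to -0.12 for Atg3, from -0.12 to -0.037 for Atg12, from -0.036 to 0.017 for Atg7 (0.017 without litter 2 and 0.016 without litter 6), from -0.10 to 0.0060 for Atg10 (above 0 without litter 6), from -0.0025 to 0.038 for Ulk1 (below 0 without litter 4), from -0.075 to -0.0083 for Ulk2 and from -0.088 to -0.035 for Becn1. Under the alternatives run, none of the 7 partners with main probesets passed the adjusted threshold (Atg5, read with 1 setting, is not among them), the lowest adjusted p by limma being 0.123, for Atg3 without litter 4, and the highest 1. With 1 litter left out, 5 to 8 of the 8 genes with main probesets were lower, as were 32 to 37 of the 40 genes of the autophagy list and 92 to 116 of the probesets of the set. Of all genes 65.6% to 71.8% were then lower, and of all probesets 60.4% to 69.1%.

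Genes past the adjusted threshold numbered 1, but 2 with a pseudocount of 64, with no relative SD filter and with trended robust variances, 5 with dim probesets left out, and 1 to 4 without 1 litter. Genes at an unadjusted p under 0.05 numbered 1065, but 644 with dim probesets left out, 4017 without litter 4, 649 without litter 2 and 579 without litter 6. Without the replicate block, 26 probesets in place of 10 passed the adjusted threshold and 19 probeset deviations in place of 2, while the count of genes at an unadjusted p under 0.05 was 1017 and no call on a gene of the set changed. Probesets past the threshold numbered 23 with a pseudocount of 64, 30 with dim probesets left out, 16 with arrays centred, 91 with trended robust variances and 9 to 15 without 1 litter, and probeset deviations 10, 18, 2, 7 and 2 to 4, with 0 where only probesets matching 1 place were used. Probesets of the set lower numbered 68 of 114 with dim ones left out, 71 of 160 with arrays centred and 77 of 160 with arrays quantile-normalized again. The shares of all probesets lower were then 70.2%, 43.7% and 50.9%. With arrays centred 20 genes of the autophagy list were lower, against 38.7% of all genes.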
